A study of Mus musculus with 3 samples.

Results

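Thymus bins of a *Trp53*-/- (KO) mouse labelled KO1134 were set directly against thymus bins of a second KO mouse, labelled KO1308, with the thymus of a wild-type (WT) mouse, labelled WT1101, shown beside them. UMIs (transcripts counted once through their molecular identifier) were summed in squares of 27 µm. A bin was kept if it held 300 genes or more and if no more than 30% of its UMIs were mitochondrial. A kept bin became a member when its 7 × 7 window held more UMIs of *Themis*, *Arpp21*, *Ptcra*, *Cd8b1*, *Prss16* and *Psmb11* than of the B cell genes *Cd79a*, *Cd79b* and *Ms4a1*, and the bin itself held at least 1 UMI of *Cd3d*, *Cd3e* or *Cd3g*. Of 56744 kept bins in the 3 sections, 35362 were members, with 6698 in KO1134, 7860 in KO1308 and 20804 in WT1101. Levels of those 12 genes follow from the choice of bins and are not reported as findings.

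The thymus turns bone marrow progenitors into T cells. In its cortex, double-negative progenitors respond to Notch and Il7 signals, rearrange the *Tcrb*, *Tcrg* and *Tcrd* genes, and become double-positive cells that carry both Cd4 and Cd8 and rearrange *Tcra* with the Rag recombinase. Selected cells lose one coreceptor, move through the medulla and leave. The p53 protein, which *Trp53* encodes, halts or kills cells with broken DNA, and mice without it are prone to thymic lymphoma.

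All 3 mice were C57BL/6 females; KO1134 and WT1101 were 17 weeks old and KO1308 was 21 weeks old. They were perfused with cold PBS under pentobarbital, and 1 section of each thymus was placed on a barcoded slide that captures polyadenylated RNA. The KO mice came from a germline knockout line, bred through heterozygous crosses and without a tissue-specific driver. Wild-type mice were both bought and bred from those crosses, and which of these WT1101 was is not given in the sources used here. Tissue of KO and WT mice was permeabilised for different times. With 1 section per mouse no test between mice could be made, and mouse, age, section and library cannot be told apart. The sections are named here as their labels name them. The study's own sample sheet lists no thymus section for the mouse labelled KO1134, and the depth it lists for the other KO mouse lies nearer to that of the section labelled KO1134, so which KO mouse gave which section was not settled.

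Members held 18938617 UMIs in KO1134, 9774158 in KO1308 and 34998560 in WT1101, and a median member bin held 2876, 1099 and 1575 UMIs. Levels are given as CPM, UMIs scaled to 1e+06 per section. Brackets hold 95% intervals, exact Poisson for CPM, conditional binomial for ratios and Clopper-Pearson for shares, and these cover counting error only. Because a member needs a single CD3 UMI, depth also touches the choice: 38.9% of members in KO1134 and 55.9% in KO1308 held exactly 1. A bin can hold several cells, so fewer cells of a type and less RNA per cell cannot be told apart. The KO1134 section also held 2028 bins with more B cell than thymus gene UMIs or as many, against 758 in KO1308 and 0 in WT1101, and these are not members. *Trp53* itself stood at 14.7 CPM in KO1134, 25.4 in KO1308 and 80.5 in WT1101. Which part of the gene is deleted was not used here, and UMIs of a gene can come from a part that remains.

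Cortical epithelium, a defining cell type of the thymus, was read in the 3 sections. Its list of 10 genes holds none of the genes that chose the bins, although *Prss16* and *Psmb11*, which did, mark the same cells, so its level is partly set by the choice. All 10 genes were compared and none differed 2-fold. Their summed level was 4815 CPM in KO1134, 4808 in KO1308 and 4375 in WT1101. Members were split by whether the window held more UMIs of *Prss16*, *Psmb11* and *Ccl25* than of *Krt5*, *Krt14*, *Aire*, *Cldn3*, *Cldn4* and *Epcam*. Where it did, members were cortex-side, with 6148 in KO1134 and 6851 in KO1308. The others, 550 and 1009, were medulla-side.

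Across all genes, the KO sections differed widely. Of 14574 genes with at least 100 UMIs in both KO sections together, 665 (4.56%) were at least 2-fold higher in KO1134 and 1201 (8.24%) were at least 2-fold lower. The median log2 ratio of KO1134 over KO1308 was -0.14, and with ratios centred on that median the split was 877 higher and 877 lower. For 91.0% of the higher and 91.6% of the lower genes, the ranges over 4 parts of a section (split at the median x and y of its members) did not overlap between the KO sections, against 42.8% of all genes compared. Parts share a section and are not replicates. The direction held at 2-fold or more in cortex-side bins for 648 of the 665 and 1150 of the 1201 genes. Those bins held 17472669 of the 18938617 member UMIs in KO1134 and 8624552 of 9774158 in KO1308, so this was largely fixed in advance. In medulla-side bins the direction held for 261 and 647, and it turned around in 103 and 63. Medulla-side bins held 1465948 UMIs in KO1134 and 1149606 in KO1308, so counts per gene were lower there. Outside the members, 356 of the higher and 852 of the lower genes were also 2-fold apart in the same direction. Matching shares over all genes are not given for the medulla-side and outside bins, so these counts have no base beside them.

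**Figure D1:**
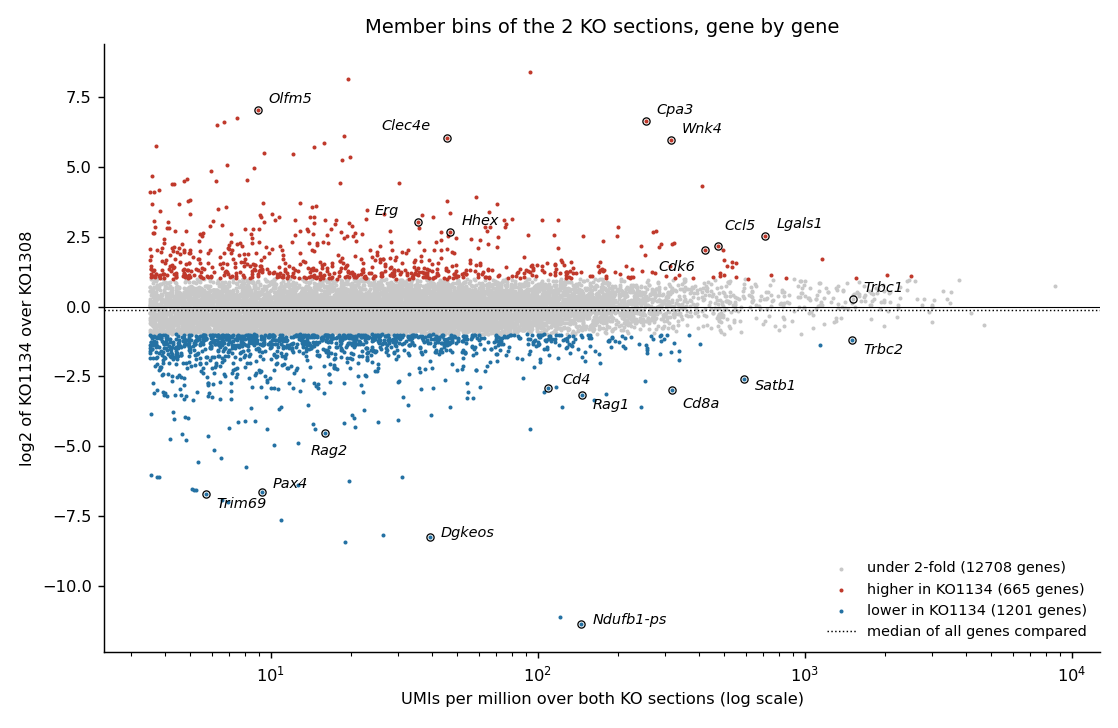
Each point is a gene, placed by its level over the member bins of both KO sections (CPM, log scale) and by its log2 ratio of KO1134 over KO1308; red points are the 665 genes at least 2-fold higher in KO1134, blue points the 1201 at least 2-fold lower. *Cpa3*, *Wnk4* and *Clec4e* stand at the top, *Rag2*, *Cd8a* and *Rag1* far below the dotted median of -0.14.

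The WT value lay on the KO1308 side for many of these genes. Of the 665 higher genes, WT1101 was within 1.5-fold of KO1308 and further from KO1134 for 287, the reverse for 99, and outside both for 219, of which 203 were lowest in WT1101. Of the 1201 lower genes, WT1101 was near KO1308 for 419 and near KO1134 for 383. It was outside both for 286, of which 188 were lowest and 98 highest in WT1101. Of the 383, 79 were processed pseudogenes, which made up 164 of all 1201 lower genes. Over all genes compared, WT1101 was near KO1308 alone for 18.1% and near KO1134 alone for 13.5%. It was outside both for 3447 of 14574 genes (23.65%), of which 2673 were lowest in WT1101. Neither KO section was the one nearer to WT1101 throughout.

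Genes of the double-positive stage were low in KO1134. Of 16 genes of that list, 6 were at least 2-fold lower and 1 at least 2-fold higher, beside 8.24% and 4.56% of all genes. The list's median log2 ratio was -0.76 beside -0.14 for all genes. *Cd8a*, a chain of the Cd8 coreceptor (GRCm38 chr6:71373427-71379173), had 93.7 CPM in KO1134, 744 in KO1308 and 1858 in WT1101, and KO1308 was 7.94 times as high as KO1134 (7.54 to 8.37). *Cd4*, the other coreceptor (chr6:124864692-124888221), had 33.6, 252 and 250 CPM, a 7.51-fold difference (6.88 to 8.20). Over the parts of a section, *Cd4* ranged from 22.98 to 42.6 CPM in KO1134 and from 216 to 413 in KO1308, so the ranges were far apart. Ranges did not overlap for 91.6% of all the lower genes.

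*Satb1*, a chromatin organiser of thymocytes, had 214, 1301 and 3504 CPM in KO1134, KO1308 and WT1101, and *Ets2*, an Ets factor, 87.3, 268 and 756. In both genes the order was the same, with KO1134 lowest and WT1101 highest. *Lef1*, a partner of beta-catenin, had 60.4, 202 and 206 CPM, so KO1134 was the section that stood apart. *Tcf12*, which encodes the E protein HEB, went the other way, with 664, 316 and 482 CPM. In medulla-side bins *Cd8a* had 159 CPM in KO1134 and 271 in KO1308, and *Ets2* 145 and 139, so the gaps there were under 2-fold. *Satb1* overlaps an antisense gene model, and the strand of counting is not given in the sources used here.

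Like the coreceptor genes, the recombinase genes were lower in KO1134 than in KO1308. *Rag1* (chr2:101638282-101649501) had 38.9 CPM in KO1134, 350 in KO1308 and 656 in WT1101, and was 8.98 times as high in KO1308 as in KO1134 (8.29 to 9.74). Its neighbour *Rag2* (chr2:101624718-101632529) had 1.85, 42.9 and 96.5 CPM and a 23.2-fold difference (16.4 to 33.8). A shared gene model, B230118H07Rik, overlaps both. *Dntt*, which encodes the terminal transferase that adds bases at the joints, had 473, 661 and 1140 CPM and did not reach 2-fold. No other gene of the 10 in the recombination list did, and the list's median was -0.48.

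Among the T cell receptor constant genes, *Trbc2* was at least 2-fold lower in KO1134 and the gamma and delta genes at least 2-fold higher. The 8 constant genes of the annotation were read as 1 group after their values were seen, because the gamma genes carry other names in the files than in the list. *Trbc2* was 2.28 times as high in KO1308 as in KO1134, with 1039 CPM in KO1134, 2370 in KO1308 and 4427 in WT1101. *Trbc1* had 1586, 1323 and 2612 CPM and *Trac* 269, 311 and 487, both under 2-fold between the KO sections. *Tcrg-C4* (chr13:19344558-19352756) had 385 CPM in KO1134, 59.1 in KO1308 and 28.1 in WT1101, a ratio of 6.52 (5.99 to 7.10). *Tcrg-C1* had 383, 87.4 and 49.9 CPM, and *Tcrg-C2* had 331, 93.0 and 53.5. *Tcrg-C3* had 6.13, 2.15 and 0.972 CPM, and the delta gene *Trdc* 159, 56.4 and 70.6. In medulla-side bins the log2 ratios of *Tcrg-C1* and *Tcrg-C2* were 0.70 and 0.30, and in bins of 20 µm that of *Tcrg-C3* was 0.97, all under 2-fold.

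*Tcrg-C4* ran from 290 to 439 CPM in KO1134 and from 44.0 to 73.2 in KO1308 over the parts, without overlap, which held for 91.0% of all the higher genes. *Sox13*, a transcription factor of gamma-delta T cells named here after its value was seen, had 101 CPM in KO1134, 7.98 in KO1308 and 4.94 in WT1101. The gamma constant genes resemble each other closely, so how reads were divided among them is uncertain. Reads can also come from unrearranged gamma and delta loci, and transcripts of complete chains were not told apart from them here.

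**Figure D2:**
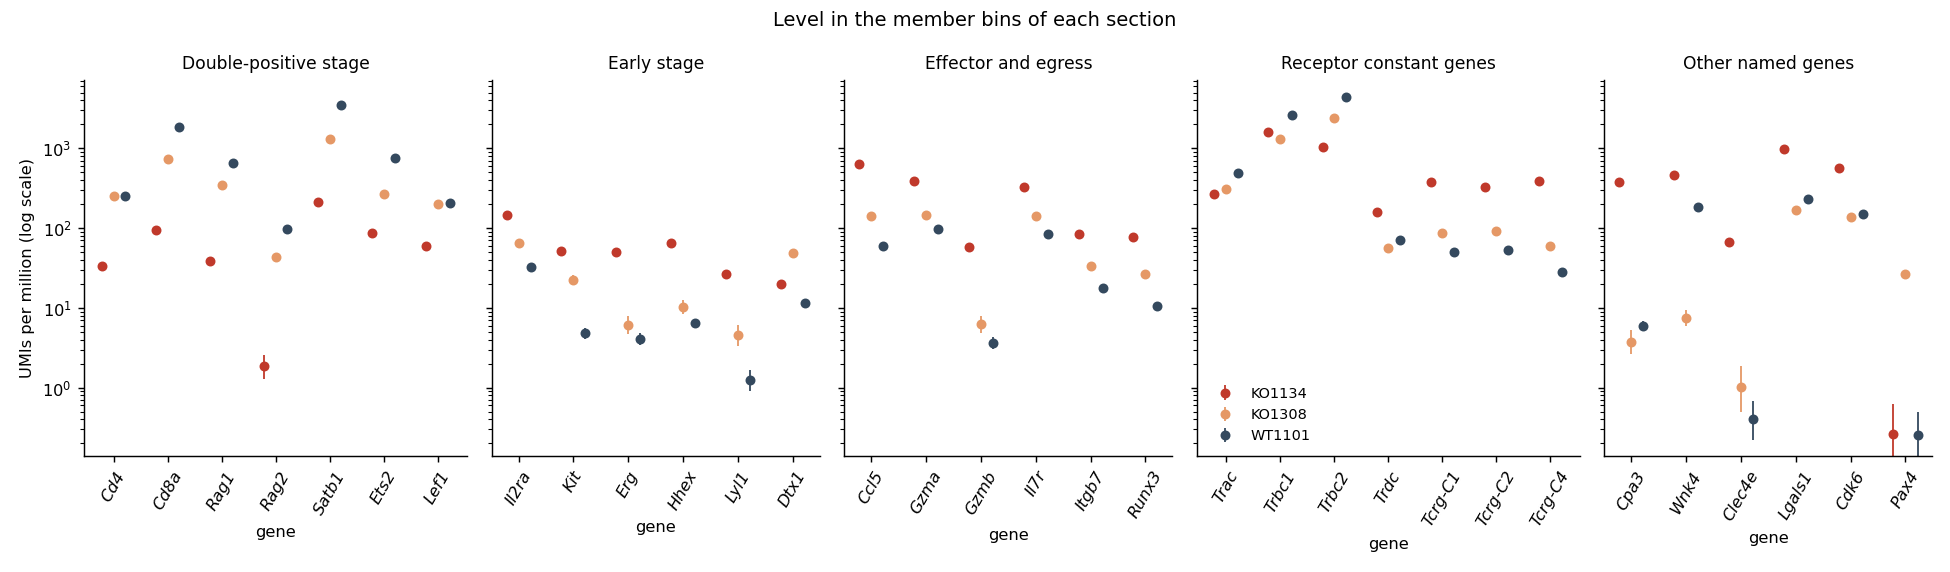
Levels of named genes in the member bins of KO1134, KO1308 and WT1101, in CPM (log scale), with 95% exact Poisson intervals (counting error only; 1 section each). *Cd4*, *Cd8a*, *Rag1*, *Rag2* and *Satb1* are lowest in KO1134, whereas *Erg*, *Hhex*, *Ccl5*, the *Tcrg* genes, *Cpa3* and *Cdk6* are highest there.

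Genes of the earliest thymocytes were split, and progenitor factors were among those higher in KO1134. Of 15 genes compared in the early thymocyte and Notch list, 6 were at least 2-fold higher and 1 was at least 2-fold lower. Over all genes these shares were 4.56% and 8.24%. The list's median log2 ratio was 0.62, with 8 ratios above 1 and 7 below. *Erg*, an Ets factor of blood stem cells and early progenitors (chr16:95359169-95586593), had 50.2 CPM in KO1134, 6.14 in KO1308 and 4.11 in WT1101. *Hhex*, a homeobox gene of progenitors (chr19:37434810-37440731), had 65.3, 10.2 and 6.37 CPM. *Lyl1*, a basic helix-loop-helix factor, had 26.7, 4.60 and 1.26 CPM, and its partner *Lmo2* 13.8, 6.86 and 2.54. *Lmo2* was only just past 2-fold and fell short of it under 5 of the 19 alternative settings. For *Erg*, *Hhex* and *Lyl1* every part of KO1134 lay above every part of KO1308, and parts were apart for 91.0% of all the higher genes.

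Receptor genes of this stage differed in direction. *Il2ra*, the Cd25 chain that marks double-negative cells, had 148, 64.3 and 32.1 CPM, and *Kit*, the stem cell factor receptor, had 51.5, 22.3 and 4.80. In medulla-side bins the log2 ratio of *Il2ra* was 0.13, under 2-fold. The Notch targets in the list did not move together. *Dtx1*, a Notch target that encodes a ubiquitin ligase, had 20.0 CPM in KO1134, 49.2 in KO1308 and 11.5 in WT1101, whereas *Hes1*, a Notch target that encodes a repressor, had 80.7, 52.4 and 16.8; in medulla-side bins the log2 ratio of *Hes1* was -0.29, the other direction. *Notch1* had 35.8, 59.2 and 40.3 CPM and *Notch3* 123, 131 and 98.5. In medulla-side bins the median of the list, taken relative to all genes, was -0.09, on the other side of 0.

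Genes of mature and effector T cells gave a mixed picture. In the mature thymocyte list 3 of 13 genes were at least 2-fold higher in KO1134, where 4.56% of all genes were, and none lower (median 0.29). These were the Il7 receptor gene *Il7r* with 330, 141 and 83.2 CPM, the integrin gene *Itgb7* with 83.6, 34.0 and 17.6, and *Runx3*, a factor of the Cd8 lineage, with 77.3, 26.3 and 10.7. In medulla-side bins their log2 ratios were 0.43, 0.55 and 0.57, all under 2-fold. Over the same genes and not taken relative to all genes, the list's median was 0.54 in cortex-side and -0.27 in medulla-side bins. The medulla-side median thus had the other direction. In the cytotoxic list (median 0.43) 5 of 12 genes were at least 2-fold higher and 1 lower, beside 4.56% and 8.24% of all genes. *Ccl5*, a chemokine of effector T and NK cells, had 634, 142 and 59.8 CPM. *Gzmb*, a granule protease, had 57.8, 6.24 and 3.66 CPM and a ratio of 9.26 (7.15 to 12.2), and *Gzma* had 394, 145 and 97.5. *Eomes*, which encodes a T-box factor, was the lower gene, with 2.90, 6.55 and 0.171 CPM.

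Place within the section bore on these levels. *Ccl5* had 504 CPM in cortex-side and 2189 in medulla-side bins of KO1134, against 90.9 and 529 in KO1308. *Il7r* had 328 and 357 CPM in KO1134 and 125 and 264 in KO1308, so the gap was narrower on the medulla side.

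The largest ratios belonged to genes of no shared list. *Cpa3*, a carboxypeptidase known from mast cell granules (chr3:20215620-20242181), had 379 CPM from 7182 UMIs in KO1134, 3.79 CPM from 37 UMIs in KO1308 and 5.92 CPM in WT1101, a ratio of 100 (72.6 to 142). Over parts it ranged from 215 to 492 CPM in KO1134 and from 3.42 to 4.17 in KO1308. Because *Cpa3* is a mast cell gene, 6 other genes of that cell type were read after its value was seen. *Ms4a2*, *Fcer1a*, *Tpsb2*, *Tpsab1*, *Cma1* and *Mcpt4* summed to 23 UMIs in KO1134, 17 in KO1308 and 27 in WT1101, so the defining mast cell genes were near 0 in all 3 sections.

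*Clec4e*, the Mincle receptor, had 67.9 CPM in KO1134, 1.02 in KO1308 and 0.400 in WT1101. *Wnk4*, a kinase gene of salt transport (chr11:101260567-101277409), had 469, 7.57 and 184 CPM, with a ratio of 62.0 (49.3 to 79.0). WT1101 lay between the KO sections for *Wnk4*, and an antisense model, Gm11615, overlaps it. *Zfp711* and *Trap1a*, both on the X chromosome, had 29.4 and 27.5 CPM in KO1134 and 0.716 each in KO1308. *Platr21*, whose annotated span contains that of *Trap1a* on the other strand, had 28.0 CPM in KO1134 and 0.409 in KO1308. *Il20ra* had 17.9 and 0.409 CPM, *Cd5l* 13.99 and 0.307, and *Olfm5* 13.4 and 0.102, the last from 1 UMI in KO1308 with a ratio of 131 (23.2 to 5177). *Acta1*, a gene of the muscle list, also rested on 1 UMI in KO1308. Over parts of KO1134 it ranged from 0.3065 to 22.55 CPM, and the ranges of the KO sections overlapped.

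Genes with the smallest ratios were nearly silent in KO1134. *Dgkeos* had 0.370 CPM in KO1134, 114 in KO1308 and 339 in WT1101; it is annotated antisense to *Dgke*. *Pax4*, a factor of endocrine pancreas development, had 0.264, 26.4 and 0.257 CPM, so KO1308 was the section that stood apart. *Trim69* had 0 UMIs in KO1134, 16.6 CPM in KO1308 and 0.229 CPM in WT1101. With 3 UMIs set as the limit in KO1134, its level in KO1308 was 104.6 times as high, and the counting interval began at 84.1. *Kcnj12* had 0.422, 22.7 and 0.114 CPM and *Ubap1l* 0.898, 28.2 and 0.914, again with KO1308 apart from both other sections. *Art1* had 0.317, 14.9 and 18.3 CPM and *Baiap2l2* 0.475, 16.9 and 16.1, so for this pair KO1134 stood apart.

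Differences in CPM picked out abundant genes. *Tmsb4x*, which encodes an actin-binding peptide, had 9933 CPM in KO1134, 5944 in KO1308 and 6575 in WT1101. *Lgals1*, the galectin-1 gene (chr15:78926725-78930465), had 981, 169 and 232 CPM, a ratio of 5.80 (5.52 to 6.10). *Camk2b*, *Fth1* and *Ldha* had 1881, 1678 and 1326 CPM in KO1134 against 1014, 933 and 733 in KO1308, and did not reach 2-fold. *Cst3*, the cystatin C gene, had 1024 and 498 CPM and passed it. In the other direction, *Actb* had 2551 and 3767 CPM, *Hsp90ab1* 723 and 1413, and the class I gene *H2-K1* 1618 and 2644, again under 2-fold.

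Receptor chain use differed between the sections. *Trbc1* made up 60.4% of *Trbc1* plus *Trbc2* UMIs in KO1134 (59.98 to 60.8), 35.8% in KO1308 (35.3 to 36.3) and 37.1% in WT1101 (36.9 to 37.3). Over parts the share ranged from 53.3% to 66.5% in KO1134, from 33.8% to 40.9% in KO1308 and from 36.5% to 37.6% in WT1101. In kept bins outside the members it was 50.9%, 32.8% and 37.5%. A rearranged beta chain ends in one of these constant genes, and a thymus of many clones mixes them.

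Variable and joining segments were thinly covered. *Trav6d-7* led in KO1134 with 221 of 572 *Trav* UMIs (38.6%, 34.6 to 42.8) and in WT1101 with 20.8% of 1015, whereas *Trav6-6* led in KO1308 with 12.6% of 183. Near-identical copies of these genes make the split between them uncertain. *Trbj1-4*, looked at after its value was seen, made up 16 of 20 *Trbj* UMIs in KO1134 (80.0%, 56.3 to 94.3), 4 of 32 in KO1308 and 15 of 115 in WT1101. *Trbv12-2* led the *Trbv* UMIs in KO1134 with 30 of 66 and in WT1101 with 87 of 278. In KO1308 *Trbv3* led with 13 of 51 and *Trbv12-2* had 10, and the intervals are wide at this depth.

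Genes of the ribosome took a larger share of RNA in KO1134. The 79 ribosomal protein genes (RPGs) summed to 14.4% of UMIs in KO1134, 10.9% in KO1308 and 10.3% in WT1101. Over parts this was 13.3% to 15.4% in KO1134 and 8.52% to 12.03% in KO1308. Of these genes, 7 were at least 2-fold higher in KO1134, where 4.56% of all genes were, and none lower, and 74 lay above the median of all genes. *Rpl10* had 1499, 457 and 848 CPM, and *Rps10* had 631, 1019 and 689; *Rps10* shares its place and strand with RPS10-NUDT3. None of 25 translation factors differed 2-fold. The median log2 ratio of the nuclear respiratory chain genes was 0.32, with 1 of 30 genes past 2-fold.

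Genes of mitosis were lower in KO1134 in median, whereas the median of DNA replication genes lay near that of all genes. Of 21 mitosis genes 3 were at least 2-fold lower, where 8.24% of all genes were, and none higher, with a median log2 ratio of -0.58. *Top2a*, the topoisomerase of dividing cells, had 192, 400 and 452 CPM, *Birc5* 112, 241 and 282, and *Cenpe* 26.4, 60.7 and 63.3. With ratios centred on their median, the log2 ratios of *Top2a* and *Birc5* were -0.92 and -0.97, under 2-fold. Of 24 replication genes *Rrm2*, a subunit of ribonucleotide reductase, was the one past 2-fold, with 130, 366 and 376 CPM. The replication list's median was -0.23, beside -0.14 for all genes. *Cdk6*, the kinase that drives cells through G1 (chr5:3341485-3531008), had 566, 138 and 152 CPM in KO1134, KO1308 and WT1101, a ratio of 4.11 (3.88 to 4.35). Its partner *Ccnd3*, the D cyclin that early thymocytes depend on, had 159, 523 and 520 CPM, and *E2f2*, an E2F factor, had 55.3, 166 and 228. An antisense model, Gm17590, overlaps *Cdk6*.

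The KO sections shared *Cdkn2a*, which encodes p16 and p19Arf, with 76.9 CPM in KO1134, 46.2 in KO1308 and 0.772 in WT1101. Of 19 p53 targets compared, 3 were at least 2-fold lower in KO1134 than in KO1308, beside 8.24% of all genes, and none higher (median -0.11, near that of all genes). *Trp53inp1* had 85.6, 223 and 377 CPM, *Btg2* 76.4, 170 and 365, and *Fas*, a death receptor gene, 23.7, 73.6 and 83.2. *Bcl2l1*, which encodes the survival protein Bcl-xL of double-positive cells, had 31.4, 106 and 110 CPM, and *Cdkn1b* 43.7, 104 and 122. In medulla-side bins the log2 ratios of *Btg2*, *Fas*, *Bcl2l1* and *Cdkn1b* were -0.16, -0.65, -0.91 and -0.53, all under 2-fold. With bins thinned to 500 UMIs that of *Trp53inp1* was -0.96, also under 2-fold.

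Most genes of the signalling and presentation lists did not reach 2-fold. Over all genes, 4.56% were at least 2-fold higher and 8.24% at least 2-fold lower in KO1134. Of 15 proximal receptor signalling genes, *Lck* (262, 665 and 879 CPM) and *Cd28* (35.0, 74.6 and 187) were at least 2-fold lower in KO1134. Of 26 interferon genes 3 were at least 2-fold higher, namely *Rtp4*, *Isg20* and *Rsad2*, with a median of 0.48. Of 15 immediate early genes 3 were lower, among them *Egr1* with 29.8, 62.7 and 151 CPM. Several of these lists lay mostly on 1 side of the median of all genes. Above it were 23 of the 26 interferon genes and all 9 class II genes, and below it 12 of the 15 receptor signalling genes. The immediate early list had 6 above and 9 below, and the class I list 7 above and 6 below. None of the 13 class I and 9 class II presentation genes, 11 heat shock genes, 13 mitochondrial respiratory genes and 5 nuclear-retained RNAs differed 2-fold. The glycolysis, nucleolar and Myc lists each held 1 higher gene, *Hk1*, *Fbl* and *Mycn*; *Hk1* is overlapped by an antisense model.

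**Figure D3:**
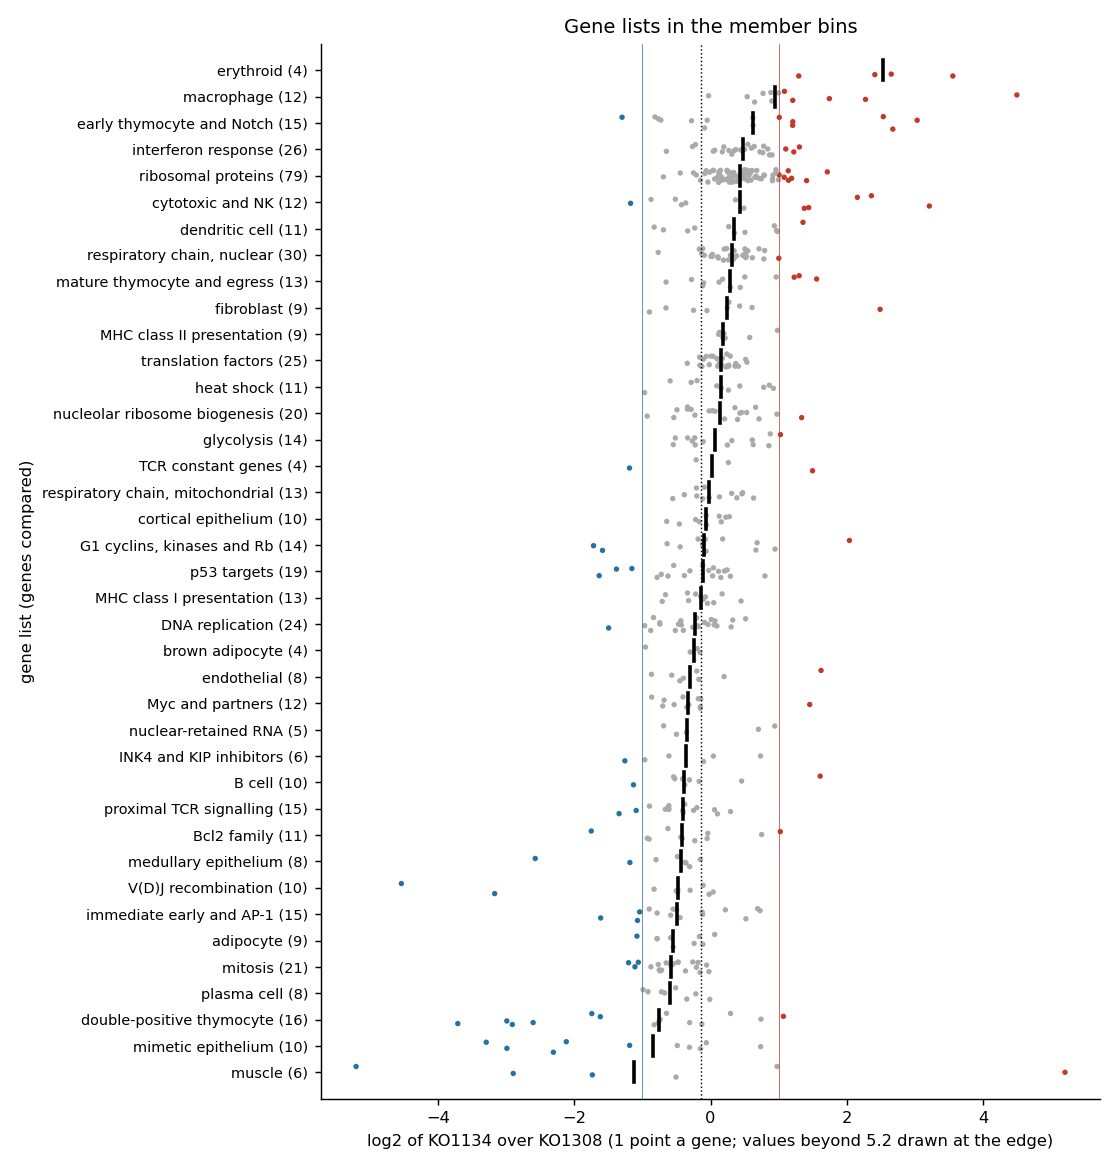
Log2 ratio of KO1134 over KO1308 for the genes of each list, 1 point per gene compared, with the list's median as a bar and the median of all genes as a dotted line; red points are at least 2-fold higher, blue at least 2-fold lower. The double-positive and mitosis medians (-0.76 and -0.58) lie left of the line, the early thymocyte and RPG medians (0.62 and 0.43) right of it.

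Markers of other cell types differed as well, and their part in the results above was not tested. Macrophage genes were higher in KO1134, with 5 of 12 at least 2-fold higher, beside 4.56% of all genes. None was at least 2-fold lower, and the median was 0.95. Macrophage genes summed to 1664 CPM in KO1134, 1023 in KO1308 and 805 in WT1101. *Cd68*, the macrophage glycoprotein gene, had 65.2, 28.2 and 35.8 CPM, and *Vsig4* and *Timd4*, receptors of resident macrophages, had 6.92 and 23.97 CPM in KO1134 against 0.307 and 7.16 in KO1308. *Pdgfrb*, the receptor gene of perivascular mesenchyme, was the called one of 9 fibroblast genes, with 97.5, 17.4 and 5.63 CPM.

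Of the medullary and mimetic epithelial lists, 2 of 8 and 5 of 10 genes were at least 2-fold lower in KO1134, beside 8.24% of all genes. The list medians were -0.43 and -0.84. In medulla-side bins alone, which were 550 in KO1134 and 1009 in KO1308, the medians over the same genes were 0.14 and 0.10. These lay on the other side of 0. *Krt5* and *Cldn4* of the medullary list also picked those bins, so the medullary value there is partly set by the split. With the minimum of 100 UMIs applied within those bins, the mimetic median relative to all genes stayed below 0, at -0.44. Of 8 medullary genes *Krt5* (128, 291 and 48.5 CPM) and *Cldn4* (3.06, 18.2 and 8.23) were at least 2-fold lower in KO1134. Mimetic cells are medullary epithelial cells that copy other tissues, and the lower genes included *Bpifa1* of airway lining with 14.2, 139 and 1.83 CPM and *Reg3g* of gut lining with 26.8, 132 and 7.63. In KO1308 the mimetic sum ranged from 144 to 601 CPM over parts, so it depended on place.

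Plasma cell genes summed to 8699 CPM in KO1134, 12005 in KO1308 and 3668 in WT1101, with none of 8 past 2-fold. Of 10 B cell genes, *Blk*, a kinase gene also used by gamma-delta T cells, was higher (44.3, 14.5 and 4.06 CPM) and *Cr2* lower. Adipocyte genes summed to 616, 802 and 146 CPM, and *Cfd* alone passed 2-fold, being lower in KO1134. All 4 haemoglobin genes compared were higher in KO1134 than in KO1308, at sums of 40.7, 8.39 and 73.6 CPM for the erythroid list; *Slc4a1* was at 0 UMIs in KO1134. Of 6 muscle genes 3 were lower, including *Myh6*, at 0 UMIs in KO1134 and overlapped by an antisense model, and *Acta1* was higher. Of the dendritic cell, endothelial and neutrophil lists, 1 of 11, 1 of 8 and 0 of 2 genes compared were at least 2-fold higher and none lower. Over all genes, 4.56% were at least 2-fold higher and 8.24% at least 2-fold lower.

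Chromosomes differed in the median of their genes. Relative to the median of all genes, the median log2 ratio of KO1134 over KO1308 was 0.39 for the X chromosome, 0.28 for chromosomes 14 and 18, 0.21 for chromosome 15, 0.18 for chromosome 7, and 0.17 for chromosomes 10 and 5. It was -0.24 for chromosome 17, -0.21 for chromosome 11 and -0.19 for chromosome 9. Of the 454 X genes, 72.0% lay above the median of all genes, and *Xist*, the RNA that silences one X chromosome, had 69.0, 35.9 and 30.3 CPM.

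Against WT1101, the shifts of KO1134 remained, at 0.32 for chromosome 14, 0.29 for 15, 0.25 for 5, 0.20 for 18, 0.19 for 7 and 10, -0.32 for 13, -0.29 for 17 and -0.27 for 16. KO1308 against WT1101 gave 0.11 for chromosomes 5 and 15, 0.09 for 14 and -0.19 for X. The X chromosome thus differed between the KO sections through both, as KO1134 was at 0.14 and KO1308 at -0.19 beside WT1101. Within KO1134, members against the other kept bins of the same section gave 0.16 for chromosomes 5 and X and 0.15 for 14, whereas the same values in KO1308 and WT1101 lay between -0.03 and 0.04 for these 3 chromosomes. DNA was not measured here.

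**Figure D4:**
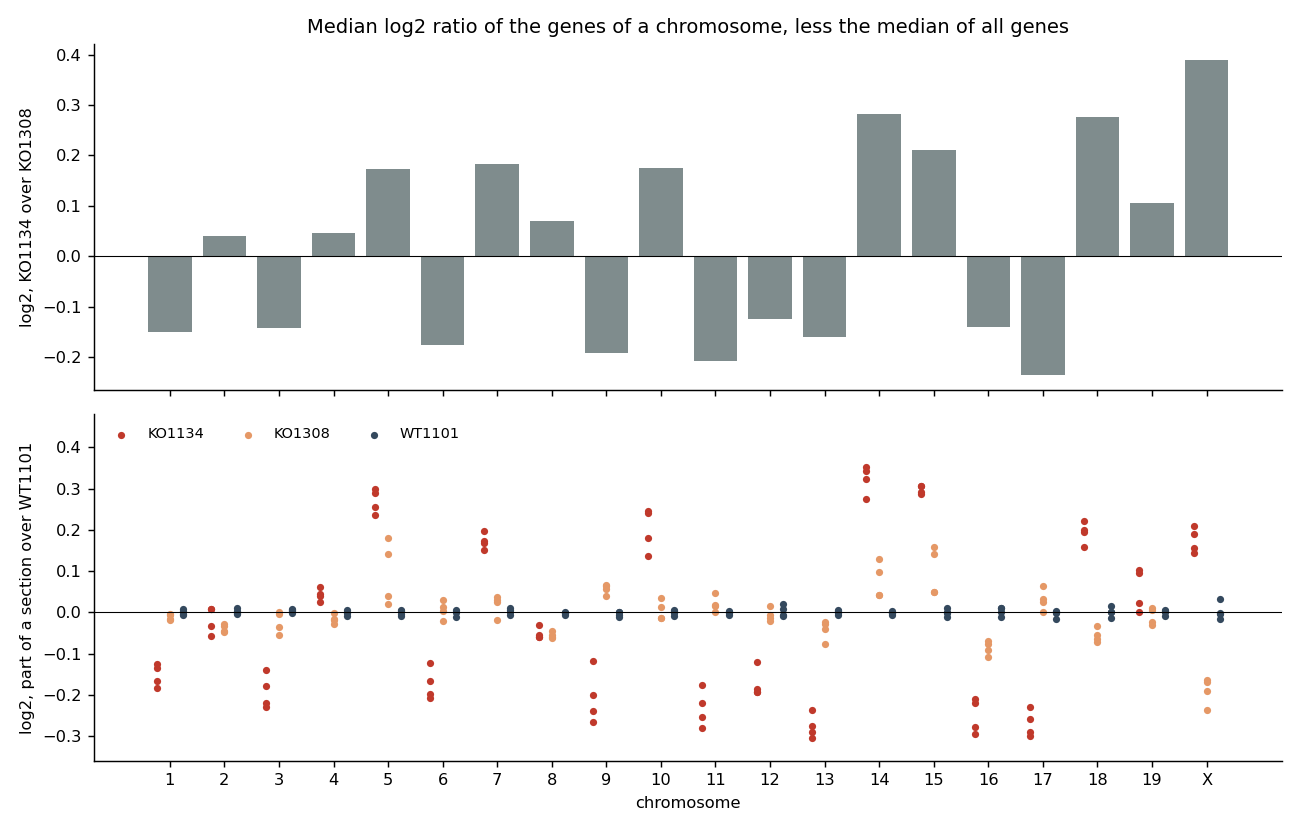
Upper panel: median log2 ratio of KO1134 over KO1308 for the genes of each chromosome, less the median of all genes. Lower panel: the same value for each of the 4 parts of each section over WT1101, where chromosome 14 lies between 0.27 and 0.35 in KO1134, chromosome 5 between 0.02 and 0.18 in KO1308, and WT1101 close to 0.

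The chromosome shifts had a place in the tissue. Members were grouped in tiles of 216 µm with at least 10 bins, and the share of UMIs from chromosome 5 genes was taken as log2 over WT1101. The limit of 0.3 was chosen after the maps were seen. In KO1134, 98 of 170 tiles reached it, in KO1308 26 of 266, and in WT1101 0 of 483. The 26 tiles of KO1308 formed 1 connected group at one edge, within 1.08 mm of it along the x axis. In KO1134 the tiles past the limit lay around the rim, and the lower tiles in the centre and at the upper left end.

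The edge group of KO1308 had its own receptor share. *Trbc1* made up 17.6% (16.4 to 19.0) of *Trbc1* plus *Trbc2* in its 794 bins, against 37.8% (37.2 to 38.3) in the other tiles of the section. In the high tiles of KO1134 the share was 63.0%, against 53.1% in the others. The tiles of both groups thus lay on opposite sides of the WT share of 37.1%. Chromosome 15 was at a median of 0.33 in the edge group and 0.39 in the high tiles of KO1134, whereas chromosome 14 was at -0.10 in the former and 0.39 in the latter.

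Named genes also differed between the groups of tiles. Within KO1308, 281 of 11676 genes (2.41%) were at least 2-fold higher in the edge group and 832 (7.13%) lower, and these tiles were picked after seeing the maps. *Pax4* had 144 CPM in the edge group and 8.599 elsewhere in KO1308, *Kit* 63.8 and 16.02, *Dtx1* 132 and 36.8, *Gzma* 434 and 101, and *Cdkn2a* 102 and 37.8. *Kit* and *Dtx1* lie on chromosome 5, whose share picked the edge group, so their gaps are partly set by that choice. *Oprk1*, an opioid receptor gene, had 63.8 and 3.30 CPM, the largest ratio. *Cd4* had 107 and 274 CPM and *Cd8a* 345 and 804. *Cpa3* had 7.004 and 3.30 CPM, far from its level in KO1134, and *Erg* 3.11 and 6.597. Without the edge group, *Dtx1*, *Cst3*, *Rsad2* and *Hk1* no longer differed 2-fold between the KO sections. The fat genes *Adipoq* and *Car3* were nearly absent from the edge group, at 0.778 and 1.56 CPM against 23.8 and 82.3.

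Within KO1134, the high tiles held more *Cpa3* (487 against 184 CPM), *Cdk6* (724 against 278), *Tcrg-C4* (472 against 228), *Sox13* (126 against 55.6) and *Rag1* (52.3 against 14.6). *Cdk6* lies on chromosome 5, whose share picked the tiles, so its gap is partly set by that choice. The high tiles held less *Krt5* (67.6 against 237), *Lyz2* (348 against 1077) and *Ccl5* (334 against 1178). The coreceptor genes went the other way from *Rag1* here, with *Cd4* at 26.4 against 46.7 CPM and *Cd8a* at 67.9 against 140.5. Macrophage genes did not move together, as *Cd163* had 25.8 CPM in the high tiles against 10.3, *Mertk* 37.2 against 30.2 and *Timd4* 23.6 against 24.7.

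**Figure D5:**
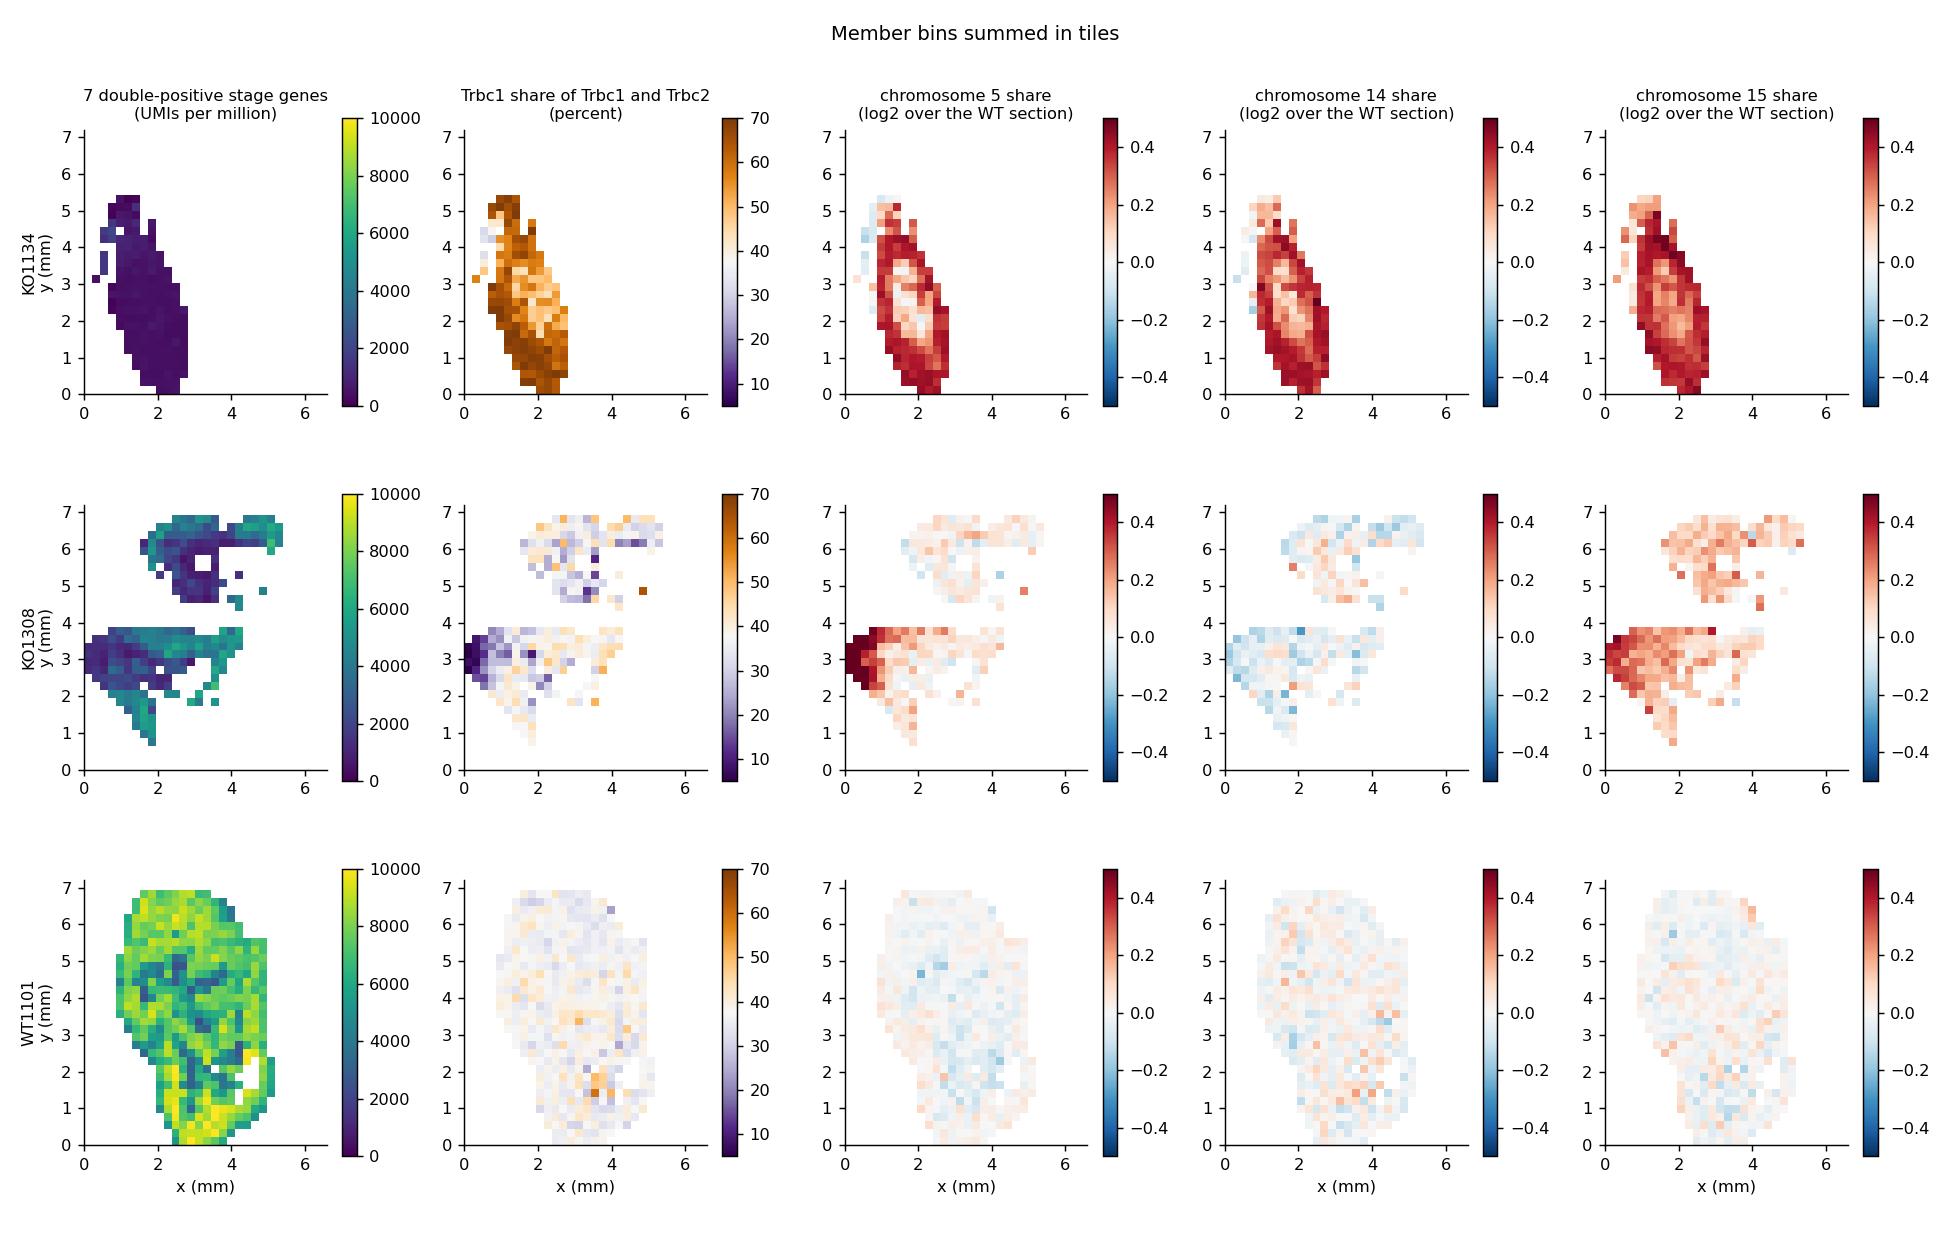
Member bins of the 3 sections in tiles of 216 µm (x and y in mm): the summed level of 7 double-positive genes (CPM), the share of *Trbc1* in *Trbc1* plus *Trbc2* (percent), and the log2 share of chromosome 5, 14 and 15 genes over WT1101. Chromosome 5 is high in 98 of 170 tiles of KO1134 and in 1 edge group of 26 tiles of KO1308, where *Trbc1* is low.

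Some of the smallest ratios fell in 1 class of annotation. Of 184 genes annotated as bidirectional promoter lncRNA, 7 had UMIs anywhere in the KO1134 section, 160 in KO1308 and 6 in WT1101. Among the 12 compared, 10 were at least 2-fold lower in KO1134, and all 10 had 0 UMIs there. *Ndufb1-ps* had 0, 424 and 0 CPM. Whether the sections were counted with the same gene models was not tested. *Cox5a*, which is partnered by such a gene, had 729, 364 and 750 CPM. Processed pseudogenes were also lower in KO1134, with 26.6% of 617 at least 2-fold lower, against 6.69% of 12609 protein-coding genes. Among protein-coding genes alone, 521 were at least 2-fold higher and 843 at least 2-fold lower.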

How the data were processed

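Per the labels and the methods of the study, fresh-frozen thymus was cut at a set thickness, captured on spatial slides, and read with BSTMatrix and STAR against GRCm38 (build from the submitters' processing notes). The authors deposited UMI counts per gene and spot, as whole numbers without normalisation, beside files of spot positions and genes. Spots are slide positions, so spot names shared between sections (244006 between the KO sections) are not shared cells. Strand and handling of reads that match several genes are not given in the sources used here.

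Counts were summed per bin and then over member bins, and scaled to CPM. Folds were not cut out. Called means a ratio of at least 2 or at most 0.5 among genes with at least 100 UMIs over both KO sections. Where a section had 0 UMIs, 3 UMIs served as the limit. Gene positions and biotypes come from GENCODE M21, which matched 99.8% of gene identifiers. The lists of 43 gene groups and the members were chosen with earlier results of these data known. Named were the 12 genes at each end of the ratios and of the CPM differences (without gene models, immunoglobulin, variable segment, RPG and haemoglobin genes), list members, *Trp53* and *Cdkn2a*; exceptions are marked in the text. Counts were simulated for these sections with 200 genes changed, and 14555 genes were compared. All 100 genes raised 4-fold were called. So were all 88 genes lowered 4-fold that met the UMI minimum, and 3 of 14367 unchanged genes. These counts were drawn with counting error only, so they check the calculation. They give no error rate for differences between mice or sections. Python 3.11.15, numpy 2.4.6, scipy 1.17.1, pandas 2.3.3 and matplotlib 3.10.9 were used. Alternatives changed the bin width, limits, CD3 rule, window, depth, denominator, gene minimum and compartment.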

Additional observations from a re-analysis of the deposited data

How the results depend on the processing

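The counts of 665 higher and 1201 lower genes became 261 and 615 with bins thinned to 500 UMIs, 1113 and 2275 with a minimum of 20 UMIs per gene, 344 and 524 with a minimum of 500, and 104 and 239 in medulla-side members. Fewer UMIs or genes entered these settings, apart from the minimum of 20. Under the other 15 of 19 alternatives both counts stayed within 1.5-fold. Of 1527 values of the 86 called genes tracked, 1460 stayed past 2-fold and 67 did not, 30 of them in medulla-side members. Turned in direction were *Glycam1* (log2 ratio -1.14 with thymus genes at 3 times the B cell genes), *Ets2* (0.0621, medulla-side), the uncalled genes *Hes1* (-0.29) and *Trac* (0.02, both medulla-side), and the medians relative to all genes of the adipocyte list (0.95, thinned), the early thymocyte list (-0.0904, medulla-side) and the medullary epithelium list (0.30, medulla-side); the causes were not tested. The medullary list shares genes, among them *Krt5* and *Cldn4*, with the compartment split, so its medulla-side value is partly set by that split. *Glycam1*, a gene of high endothelium, had 46.9 CPM in KO1134, 15.2 in KO1308 and 0.229 in WT1101. All 190 chromosome values kept their direction. Of the alternatives for the counts, 4 were chosen after seeing the data, among them leaving the edge group out of KO1308 (681 and 1228 genes). No paired analysis was possible because each group is 1 section with no replicate. The variable and joining segment shares rest on few UMIs.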
